A study of Mus musculus with 8 samples.

Results

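The 41 genes described here mark the blood vessels of the brain, 33 of them expressed in endothelial cells and 8 in the pericytes and smooth muscle cells that surround the endothelium. They were taken as a list of known vessel genes and not by a rule on measured values, but with earlier results of these data known. All 41 were found among the 24062 genes of the count tables. Each passed the filter on low counts, so all 41 were among the 15789 genes tested. Several are not private to vessels: Tjp1, Ocln, Abcg2 and the organic anion transporters are also made by epithelial cells such as those of the choroid plexus, Notch3 is also made by neural progenitors, and Vtn, Ly6a, Anpep and Acta2 have sources among meningeal or blood cells.

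RNA was measured by polyA sequencing of the whole cerebellum of individual pups at postnatal day 2, in a mixed C57BL/6 background. The 4 mutants were Math1-Cre; Sufu flox/-, that is, they carried Cre and a null allele of Sufu beside a floxed one; Sufu encodes an inhibitor of Hedgehog signalling. The 4 control littermates were Sufu flox/+, and the sources used here do not say whether they had Cre. The breeding described in the labels, with one parent homozygous for a Math1 mgfp allele, would give that allele to pups of both groups. Math1 regulatory sequence is known to drive Cre in the rhombic lip lineage, which forms granule neurons and not vessels. The vessel cells of the mutants therefore carried a null and a floxed Sufu allele, where those of the controls carried a wild-type and a floxed one. The comparison asks how vessel gene RNA differs between these groups, and the Sufu dose of the vessel cells themselves cannot be told apart from the loss of Sufu in the neural lineage beside them. In bulk tissue, fewer cells of a type and less RNA per cell cannot be told apart.

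Gene counts summed to between 21479565 and 26638284 per library. Sufu, the targeted gene, was 47.6, 50.9, 55.9 and 60.7 CPM in controls 1 to 4 (CPM, a gene's counts set to a common library total after scaling for composition) and 31.7, 34.3, 36.8 and 39.8 CPM in mutants 1 to 4, with no overlap. Y-linked genes summed to 231 and 213 CPM in mutants 2 and 4 and to at most 0.22 CPM in the other 6 libraries, so the groups were not matched in sex. The library titles hold the letter P (controls 1 and 2, mutants 1 and 2) or R (the others), and the labels do not explain it. The 12 Hox genes measured, of paralogue groups that mark the hindbrain behind the cerebellum, summed to 119 to 210 CPM in controls and to 172, 63.9, 98.0 and 6.58 CPM in mutants 1 to 4. Mutants 2 to 4 thus lay below every control in these genes, mutant 4 by the most, and mutant 1 lay within the control range.

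Vessels enter the cerebellum from the meninges and branch within it during late embryonic and early postnatal life. Vascular endothelial growth factor acts on endothelial cells through the receptors Kdr and Flt1, angiopoietins act through Tek, and the endothelium recruits pericytes by releasing Pdgfb to the pericyte receptor Pdgfrb. Brain endothelium then builds the blood-brain barrier from tight junctions (Cldn5, Ocln), efflux pumps (Abcb1a, Abcg2) and carriers (Slco1c1, Mfsd2a). ETS factors such as Erg and Fli1 and SOX factors such as Sox7, Sox17 and Sox18 are known to drive endothelial genes.

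The promoters of 4 genes whose RNA was higher in mutants are shown. Kdr and Tek are the receptors of the principal vessel growth factors. Apln and Abcc9 are the members whose groups did not overlap, and Abcc9 is a pericyte gene of the list, not an endothelial one. Each run is the 250 bases before the annotated start, 5′ to 3′ on the strand of the gene, from RefSeq on GRCm38.p6, a build other than that of the counts. The stretches are chr5:75978456-75978705 on the minus strand for Kdr, chr4:94739039-94739288 on the plus strand for Tek, chrX:48034854-48035103 on the minus strand for Apln and chr6:142702275-142702524 on the minus strand for Abcc9. Capitals mark the ETS core, GGAA or its reverse complement TTCC.
Kdr: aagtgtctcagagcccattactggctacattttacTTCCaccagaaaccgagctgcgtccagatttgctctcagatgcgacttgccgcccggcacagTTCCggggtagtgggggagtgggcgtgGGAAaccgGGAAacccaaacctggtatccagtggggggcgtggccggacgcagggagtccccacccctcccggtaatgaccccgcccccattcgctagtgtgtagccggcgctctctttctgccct
Tek: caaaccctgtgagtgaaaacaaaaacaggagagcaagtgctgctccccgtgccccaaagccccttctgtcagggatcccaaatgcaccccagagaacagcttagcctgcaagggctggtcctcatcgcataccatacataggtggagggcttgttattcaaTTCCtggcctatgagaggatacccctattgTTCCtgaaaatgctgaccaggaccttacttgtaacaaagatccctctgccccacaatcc
Apln: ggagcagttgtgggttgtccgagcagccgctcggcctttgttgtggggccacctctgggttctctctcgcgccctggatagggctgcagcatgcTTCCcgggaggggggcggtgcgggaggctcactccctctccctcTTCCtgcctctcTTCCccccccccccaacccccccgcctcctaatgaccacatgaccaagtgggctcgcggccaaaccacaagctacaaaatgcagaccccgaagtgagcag
Abcc9: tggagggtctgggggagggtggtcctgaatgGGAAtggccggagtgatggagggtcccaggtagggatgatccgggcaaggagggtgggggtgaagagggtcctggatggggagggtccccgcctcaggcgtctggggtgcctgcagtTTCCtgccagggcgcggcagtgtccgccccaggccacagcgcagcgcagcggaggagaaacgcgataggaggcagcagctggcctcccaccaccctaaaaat
The core occurred 4 times before Kdr, 3 times before Apln and 2 times before each of Tek and Abcc9. Before Kcnj8, another gene with a higher mean in mutants whose stretch is not printed, it occurred 0 times. RefSeq promoters were found for 27 of the 41 genes, 33 stretches in all, and the core was in 87.9% of them, against 93.5% of all 32851 promoter stretches of the same length. The longer ETS form CGGAAG was in 6.06% of the members' stretches and 13.6% of all, and the SOX core ACAAT in 24.2% and 27.7%, each searched on both strands, where CGGAAG holds the core within it. These letters were thus no more common before vessel genes than before other genes, and a match in such a window is a description of sequence, not a site.

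Across the 41 genes, 32 had higher and 9 lower levels in mutants by the edgeR fit, against 52.3% higher among all genes tested. The median log2 fold change was 0.28, against 0.01 for all genes tested. None of the 41 passed the edgeR test over all genes at an adjusted p of 0.05 (lowest adjusted p = 0.381), and 0% of all genes tested passed it. At an unadjusted p under 0.05, 12 members were higher and 0 lower, against 6.94% of all genes tested that were higher and 5.7% that were lower. With DESeq2, 1 member passed the adjusted threshold, Abcc9, where 0.323% of genes with an adjusted p did. All 4 mutants lay above all 4 controls for 2 members, Abcc9 and Apln, against 3.58% of all genes tested, and below them for 0, against 2.96%.

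The difference was carried unevenly by the 4 mutants. Mutant 1 lay above all controls for 5 of the 41 genes, mutant 2 for 29, mutant 3 for 25 and mutant 4 for 26. As shares of the members these were 12.2%, 70.7%, 61.0% and 63.4%, where the same libraries lay above all controls for 24.0%, 22.2%, 27.4% and 34.9% of all genes tested. The median deviation of the members from the control mean was -0.09 on the log2 scale in mutant 1 and 0.37, 0.36 and 0.37 in mutants 2 to 4. In controls it was -0.13, 0.03, 0.07 and 0.04, and control 1 held the lowest of the 8 values for 16 genes. Mutant 1 lay below all controls for 14 genes and held the lowest of the 8 values for 12, so its median near 0 covers genes on both sides of the control range. Control 1 lay below the other controls for 21 genes. The share of all genes tested that lay below the controls was not measured, so these counts are not read as particular to the members. Its Sufu was 31.7 CPM, the lowest of the 8 libraries. In both groups Sufu was lower in the libraries of letter P, which include mutant 1, than in those of letter R.

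**Figure D1:**
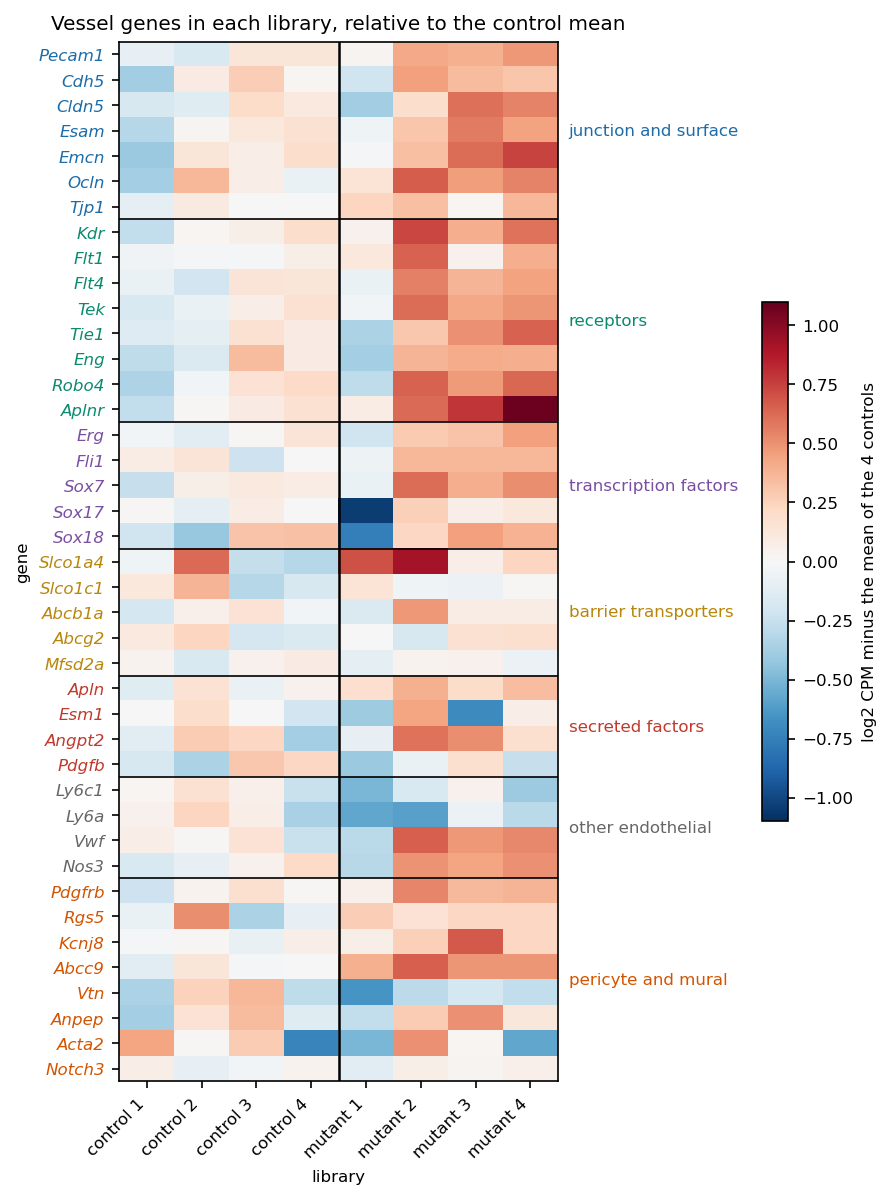
Level of each of the 41 vessel genes (rows, grouped and coloured by role) in each of the 8 libraries (columns), as log2 CPM minus the mean of the 4 controls; red is higher and blue lower. Mutants 2 to 4 are red across most junction, surface and receptor genes, save Tjp1 and Flt1 in mutant 3, mutant 1 is mixed, with Sox17 and Sox18 low and Slco1a4 high, and the barrier transporters and several mural genes show no such block.

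The surface and junction genes of the list all had higher means in mutants, 7 of 7, with a median log2 fold change of 0.33. Among them Tjp1 and Ocln are not particular to endothelium and are also made by choroid plexus epithelium. Pecam1, the adhesion molecule by which endothelial cells are most often recognised, was 26.4, 25.0, 30.7 and 30.8 CPM in controls 1 to 4 and 28.7, 37.5, 36.9 and 39.1 CPM in mutants 1 to 4. Only mutant 1 lay within the range of the controls, and the log2 fold change was 0.33 (SE 0.12, edgeR adjusted p = 0.381). Cdh5, the cadherin of endothelial adherens junctions, was 42.5, 58.9, 66.8 and 56.0 CPM in controls and 47.5, 75.5, 70.5 and 68.5 CPM in mutants. Its control 1 was the lowest of all 8 libraries, the groups overlapped, and the log2 fold change was 0.23 (SE 0.17).

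Tight junction genes went the same way, and the mutants spread widely for Cldn5. Cldn5, the main claudin of brain endothelium, was 56.2, 57.7, 72.9 and 68.2 CPM in controls and 48.7, 72.2, 96.3 and 92.7 CPM in mutants, so mutant 1 was the lowest of all libraries and mutants 3 and 4 the highest. Its log2 fold change was 0.28 (SE 0.19). Ocln, occludin, was 9.02, 15.1, 12.3 and 11.1 CPM in controls and 12.9, 18.6, 16.1 and 17.1 CPM in mutants, and its log2 fold change was 0.45 (SE 0.17), with control 2 above mutant 1 as the one overlap. Tjp1, the scaffold protein ZO-1 of tight junctions in many cell types, was 136, 157, 146 and 146 CPM in controls and 172, 184, 148 and 188 CPM in mutants, where mutant 3 and not mutant 1 was the value among the controls. Its log2 fold change was 0.24 (SE 0.10). Emcn, a sialomucin of capillaries and veins, was 5.84, 8.54, 8.18 and 8.92 CPM in controls and 7.69, 9.79, 11.9 and 13.0 CPM in mutants, again with mutant 1 inside the control range. Esam, an adhesion molecule of endothelial junctions, had means of 18.8 ± 2.65 and 23.6 ± 4.12 CPM (SD, n = 4).

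Receptors formed the group with the highest median, 0.36 on the log2 scale, and all 8 had higher means in mutants. Kdr, the principal signalling receptor for vascular endothelial growth factor, was 45.2, 55.5, 57.1 and 62.7 CPM in controls and 56.4, 91.3, 72.2 and 82.7 CPM in mutants. Mutants 2 to 4 exceeded every control and mutant 1 sat in their midst, with a log2 fold change of 0.46 (SE 0.15, edgeR adjusted p = 0.381). Aplnr, the G protein-coupled receptor for apelin, had the largest log2 fold change of the 41 genes at 0.68 (SE 0.19, edgeR adjusted p = 0.381), a fold of 1.60. It was 33.9, 41.4, 43.7 and 45.9 CPM in controls and 43.2, 63.1, 70.7 and 86.4 CPM in mutants. Mutants 2 to 4 thus exceeded every control, mutant 4 by the most, and mutant 1 did not.

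Flt1, which binds the same growth factor and acts largely as a decoy, was 17.0, 17.3, 17.2 and 18.3 CPM in controls, the tightest of these receptors, and 18.9, 27.3, 18.0 and 23.0 CPM in mutants. Mutant 3 was the value that overlapped, and the log2 fold change was 0.32 (SE 0.14). Tek, the angiopoietin receptor Tie2, was 15.5, 16.6, 18.3 and 19.6 CPM in controls and 17.1, 26.7, 23.5 and 24.4 CPM in mutants, and its log2 fold change was 0.39 (SE 0.15). For Tek too the 3 mutants other than mutant 1 exceeded every control. The remaining receptors had log2 fold changes of 0.40 (SE 0.21) for Robo4, a stabiliser of vessel walls, 0.34 (SE 0.16) for Flt4, the receptor for Vegfc, 0.32 (SE 0.19) for Tie1, the partner of Tek, and 0.22 (SE 0.19) for Eng, a co-receptor of the BMP and TGF-beta family. For Tie1 and Eng mutant 1 was the lowest of the 8 libraries, at 20.6 and 29.9 CPM.

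**Figure D2:**
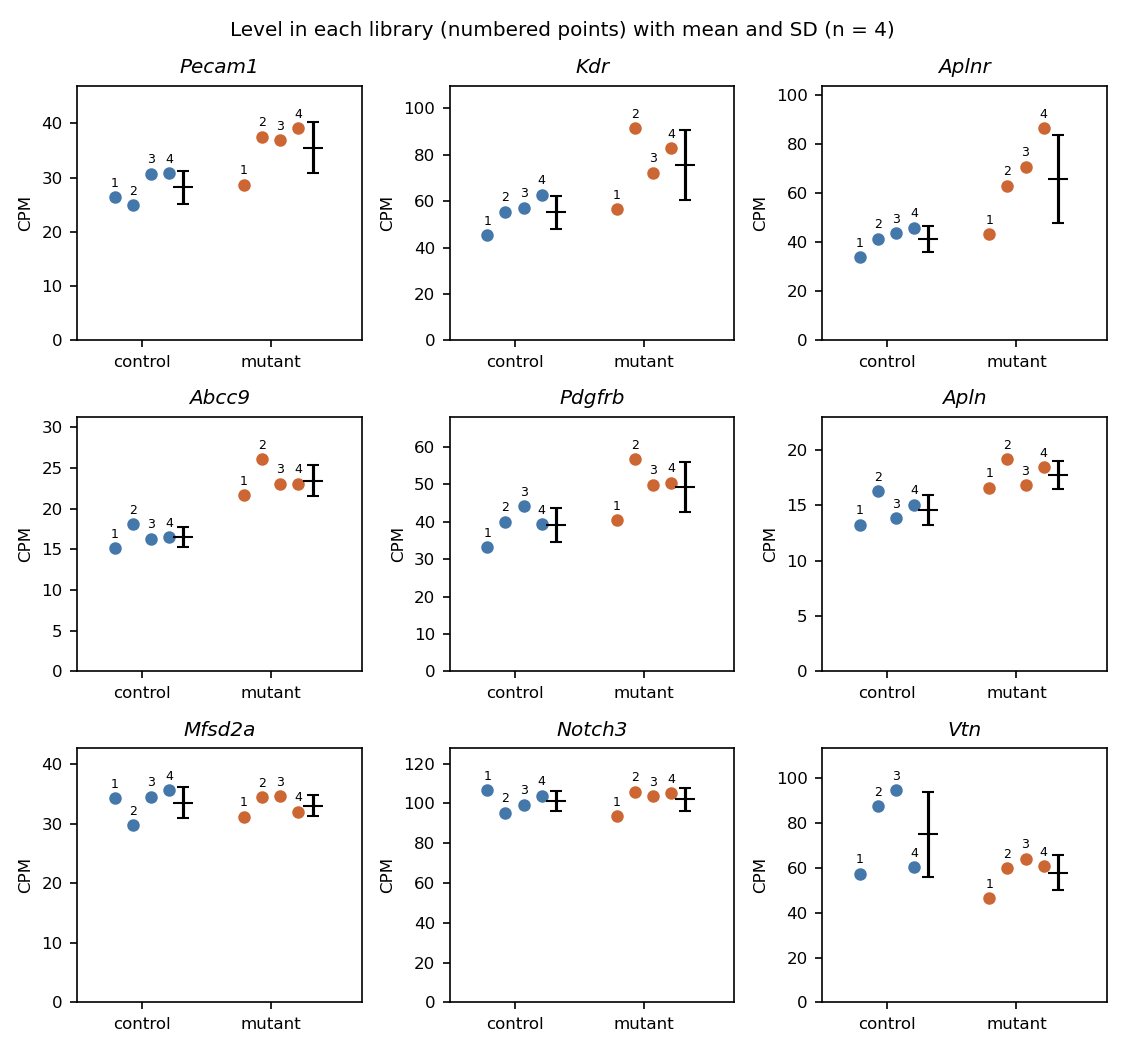
Level in CPM (linear axis from 0) of 9 vessel genes in the 4 controls (blue) and 4 mutants (orange), each point numbered by library, with the mean and SD (n = 4) at its right. Abcc9 and Apln show no overlap between groups, mutant 1 lies among the controls for Pecam1, Kdr, Aplnr and Pdgfrb, Mfsd2a and Notch3 stay level, and Vtn is lower on average with overlap.

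The endothelial transcription factors were less uniform. Sox7 was 5.11, 6.40, 6.58 and 6.48 CPM in controls and 5.81, 9.40, 8.08 and 8.73 CPM in mutants, and its log2 fold change was 0.38 (SE 0.17). Its relatives of the same SOX subfamily did not follow it: the log2 fold change was -0.07 (SE 0.24) for Sox17, an arterial factor, and 0.12 (SE 0.26) for Sox18. Both were lowest of all libraries in mutant 1, Sox17 at 2.49 CPM against 4.88 to 5.53 CPM in controls and 5.48 to 6.27 CPM in the other mutants, and Sox18 at 6.65 CPM against 8.39 to 14.0 CPM in controls. The ETS factors Erg and Fli1 had log2 fold changes of 0.23 (SE 0.16) and 0.26 (SE 0.15).

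The 5 transporters of the barrier had a median log2 fold change of 0.04, 3 of them with higher means, and 0 had an unadjusted p under 0.05 (edgeR). Mfsd2a, which carries lipids into the brain and restrains transcytosis, averaged 33.6 ± 2.58 CPM in controls against 33.1 ± 1.72 CPM in mutants (SD, n = 4 each), with a log2 fold change of -0.02 (SE 0.09). Abcb1a, the P-glycoprotein pump, stood at 0.13 (SE 0.15), Abcg2, the pump BCRP, at 0.04 (SE 0.13) and Slco1c1, the thyroxine carrier, at -0.01 (SE 0.14). Slco1a4, an organic anion carrier, was 9.44, 15.0, 8.08 and 7.84 CPM in controls and 15.9, 18.4, 10.2 and 11.5 CPM in mutants, and its log2 fold change was 0.47 (SE 0.24), with the 2 mutants and 1 of the controls of letter P as its highest libraries. The difference in Abcg2 turned with title letter, from -0.25 within P to 0.34 within R, but its interaction did not pass over all genes (edgeR adjusted p = 0.062). None of the 41 members passed the interaction test, which 3.2% of all genes did, and the median log2 fold change of the members was 0.21 within P and 0.31 within R.

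The factors that endothelial cells release also divided. Apln, which encodes the apelin peptide of sprouting tip cells and the ligand of Aplnr, was 13.2, 16.3, 13.8 and 15.1 CPM in controls and 16.6, 19.1, 16.8 and 18.5 CPM in mutants. Every mutant, mutant 1 included, exceeded every control, with a log2 fold change of 0.28 (SE 0.11, edgeR adjusted p = 0.386). The margin was narrow, 16.6 CPM in mutant 1 against 16.3 CPM in control 2. Without mutants 2 and 4, which held Y-linked counts, the log2 fold change of Apln was 0.19. Angpt2, a Tek ligand made at sites of remodelling, had a log2 fold change of 0.30 (SE 0.19). Pdgfb, the recruiter of pericytes, stood at -0.15 (SE 0.17) and the tip cell proteoglycan Esm1 at -0.10 (SE 0.30), the latter at under 1.1 CPM in every library. Ligand and receptor thus both had higher means for apelin, while Pdgfb had a lower mean beside the higher one of its receptor Pdgfrb.

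Among other endothelial genes, Vwf, the clotting protein von Willebrand factor, averaged 20.3 ± 2.38 CPM (SD, n = 4) over controls and was 16.4, 31.8, 28.1 and 29.1 CPM in mutants, and Nos3, the endothelial nitric oxide synthase, averaged 14.0 ± 1.63 CPM (SD, n = 4) over controls and was 11.3, 19.7, 19.0 and 19.8 CPM in mutants. For both genes mutant 1 was below every control and the other mutants above every control. The neighbouring genes Ly6a and Ly6c1, surface antigens of endothelium and of blood cells that share sequence with other Ly6 genes and may be miscounted, went the other way, at -0.41 (SE 0.23) and -0.26 (SE 0.17).

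**Figure D3:**
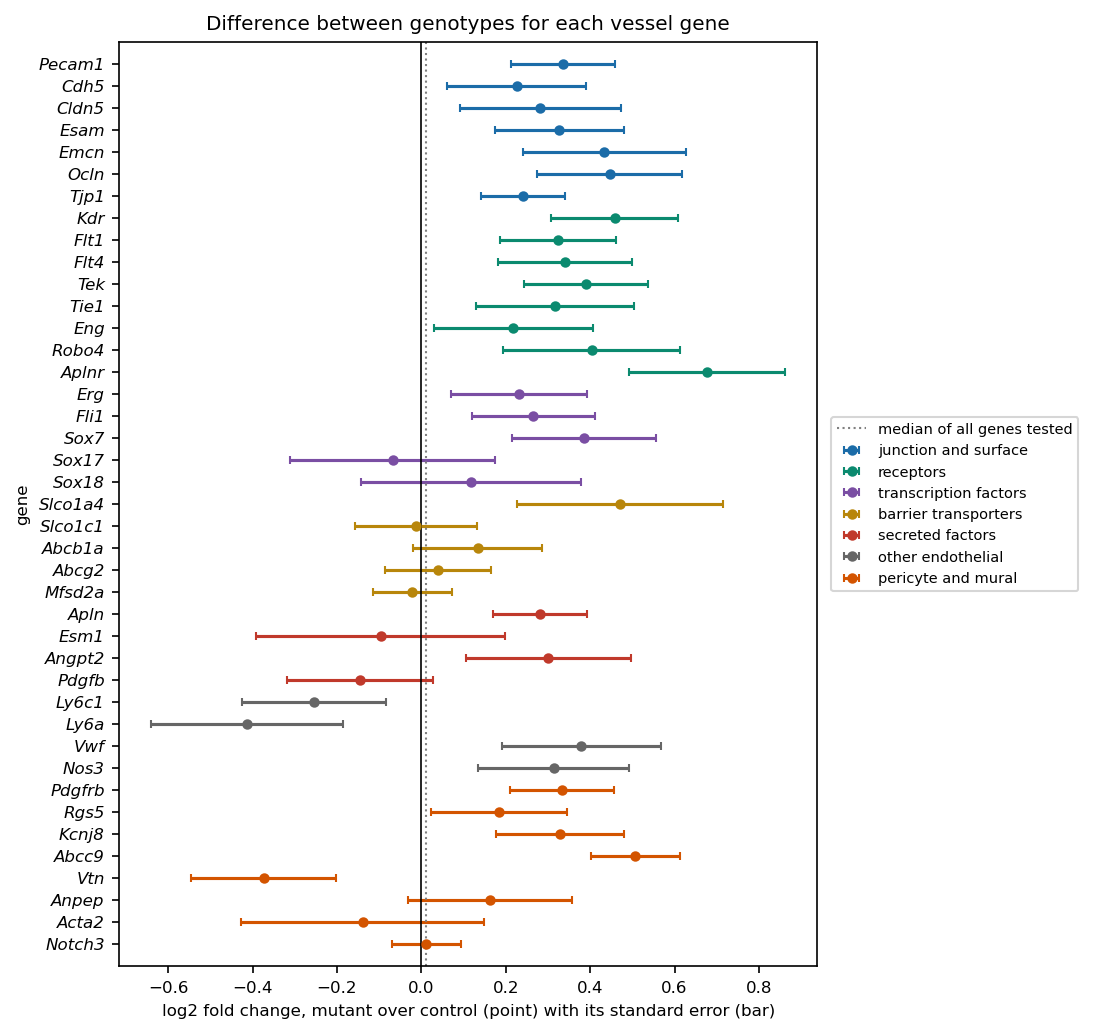
Log2 fold change of mutant over control for each of the 41 genes (points, coloured by role) with its standard error from edgeR (bars); the dotted line is the median of all genes tested, 0.01. Junction, surface and receptor genes all lie to the right of 0, and Ly6a (-0.41), Vtn (-0.37) and Ly6c1 (-0.26) lie farthest to the left.

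Pericyte and mural genes held the member with the smallest p of all 41. Abcc9, the sulfonylurea receptor subunit of the pericyte potassium channel, was 15.1, 18.1, 16.3 and 16.5 CPM in controls and 21.6, 26.1, 23.1 and 23.1 CPM in mutants. All mutants exceeded all controls, by a log2 fold change of 0.51 (SE 0.11), with 0.52 within letter P and 0.49 within R. Its adjusted p was 0.381 with edgeR and 0.00856 with DESeq2. Kcnj8, the pore subunit of the same channel and the next gene along the chromosome, averaged 6.76 ± 0.31 CPM (SD, n = 4) over controls and was 7.08, 8.11, 10.9 and 7.91 CPM in mutants, and its log2 fold change was 0.33 (SE 0.15).

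Pdgfrb, the receptor by which pericytes are recruited, was 33.2, 40.0, 44.2 and 39.4 CPM in controls and 40.5, 56.7, 49.9 and 50.4 CPM in mutants, and its log2 fold change was 0.33 (SE 0.12), and mutant 1 was again the value within the control range. Rgs5, a G protein regulator that marks pericytes, was 26.8, 40.1, 22.1 and 26.4 CPM in controls and 33.9, 31.3, 32.9 and 33.0 CPM in mutants. Control 2 was its highest library, the mutants were nearly equal, and the log2 fold change was 0.18 (SE 0.16). Vtn, vitronectin, was the member with the lowest mural fold change, averaging 75.0 ± 18.8 CPM in controls against 57.9 ± 7.74 CPM in mutants (SD, n = 4 each), with a log2 fold change of -0.37 (SE 0.17) that did not pass (edgeR adjusted p = 0.396). Notch3, the mural Notch receptor, was level at 101 ± 4.98 and 102 ± 5.72 CPM (SD, n = 4), with a log2 fold change of 0.01 (SE 0.08). Anpep, the aminopeptidase CD13, stood at 0.16 (SE 0.19) and Acta2, smooth muscle actin, at -0.14 (SE 0.29). Of the 8 mural genes 6 had higher means, with a median of 0.17.

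Counts per exon bin divide the RNA of the same libraries by position and are not independent of the gene counts. None of the members passed the test for changed use of its bins by Simes' method in edgeR, where 0.00749% of 13351 genes passed, nor by the F test per gene, where 0.0225% did. The test covered 38 members with 605 bins. Cldn5, Aplnr and Esm1 had too few bins for it. Of the 608 bins of all members that passed the filter on low counts, 504 had higher means in mutants. The share of higher bins among all bins was not measured, and the bins of a gene largely repeat its direction. The direction was uniform or nearly so in some genes: all 30 bins of Kdr, all 23 of Tie1, all 12 of Cdh5 and 34 of 36 of Abcc9 had higher means in mutants, and all 8 bins of Vtn and all 7 of Pdgfb had lower ones. Of the 30 bins of Flt1, whose gene also yields a soluble form by ending early, 28 were higher. Others were mixed, with 7 of 9 bins of Erg, 1 of 2 of Sox7 and 17 of 33 of Notch3 higher.

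The partners of these genes, from lists of known pathway genes, had medians nearer 0, save the basement membrane genes. Of 14 tested ligands and co-receptors of the growth factor and angiopoietin pathways, 9 had higher means and 0 passed (edgeR), with a median log2 fold change of 0.11. Vegfa itself, the main ligand of Kdr, averaged 59.6 ± 2.22 CPM in controls against 63.4 ± 3.87 CPM in mutants (SD, n = 4 each). The members with the smallest p were Vegfc, the Flt4 ligand, at 0.38 (SE 0.16), with no overlap, and Vegfb at -0.30 (SE 0.13). Among 16 hypoxia targets 9 were higher and 7 lower with a median of 0.03, and Ndrg1 (-0.42, SE 0.15) and Kdm3a (0.26, SE 0.10) led in opposite directions. Among 19 vascular Notch and BMP genes 12 were higher (median 0.05), led by Hey1 at 0.57 (SE 0.18) and Hes1 at 0.55 (SE 0.20), both also neural genes.

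The WNT and norrin genes that induce the barrier had 11 of 16 members higher, with a median of 0.15 and 0 passing (edgeR). Fzd4, the receptor for norrin on brain endothelium, was 9.06, 9.91, 8.72 and 9.48 CPM in controls and 10.9, 13.6, 11.8 and 13.1 CPM in mutants, with no overlap and a log2 fold change of 0.41 (SE 0.12). Wnt7a, a neural ligand for that endothelium, averaged 13.6 ± 1.54 CPM in controls against 8.76 ± 2.44 CPM in mutants (SD, n = 4 each), also with no overlap, at -0.64 (SE 0.20). Fzd4 and Wnt7a thus lay on opposite sides of the control level, and neither passed (edgeR adjusted p = 0.381 for both). Ndp, the gene of norrin itself, had a higher mean as Fzd4 did, at 0.34 (SE 0.15), and Wnt7b stood at -0.03 (SE 0.13). Of 16 other nutrient carriers and barrier genes 12 were higher (median 0.09), led by Slc38a5 at 0.40 (SE 0.16) and Slc7a1 at 0.26 (SE 0.11). Basement membrane genes, made by endothelium, pericytes, meninges and choroid plexus alike, were higher in 11 of 12 cases (median 0.23), led by Lama5 at 0.74 (SE 0.22) and Lamb1 at 0.37 (SE 0.14). They summed to 2057 to 2365 CPM in controls and to 2126, 2576, 2515 and 2630 CPM in mutants 1 to 4, with only mutant 1 in the control range. Further mural genes did not follow: 5 of 15 tested were higher (median -0.07), with Cspg4 at -0.27 (SE 0.10), a gene of oligodendrocyte precursors as well, and Tagln at -0.40 (SE 0.22). No gene of these lists passed over all genes tested.

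Markers of other cell types also differed in level between the groups. Choroid plexus markers had higher means in 12 of 13 cases, 11 of them without overlap, and their summed level was 1591 to 3646 CPM in controls and 3953 to 6628 CPM in mutants, without overlap. Mutants 1 to 4 were at 3953, 6628, 5243 and 5220 CPM. Meningeal markers were higher in 4 of 12 cases, at 1413 to 2580 CPM in controls and 1688 to 2090 CPM in mutants. Granule precursor markers were higher in 10 of 10 cases, at 1441 to 1685 CPM in controls and 1576, 1883, 2105 and 2890 CPM in mutants 1 to 4. Only mutant 1 lay within the control range for their sum. Microglial markers were higher in 0 of 11 cases, at 211 to 321 and 173 to 256 CPM. Of 5 tested lymphatic markers 4 were higher, at 338 to 384 and 380 to 512 CPM summed, most of it from Reln, a neuronal gene, while Lyve1 overlapped. Red cell markers gave little: the globin rows held at most 13 counts in any library, and Alas2 held 188 to 471. Oligodendrocyte markers were higher in 1 of 10 cases (1254 to 1885 and 647 to 1254 CPM), astroglial ones in 6 of 10 (3371 to 4001 and 3157 to 3907 CPM) and platelet and leukocyte ones in 2 of 8 tested (90.6 to 116 and 75.2 to 99.7 CPM). Their part in the vessel gene levels was not tested.

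**Figure D4:**
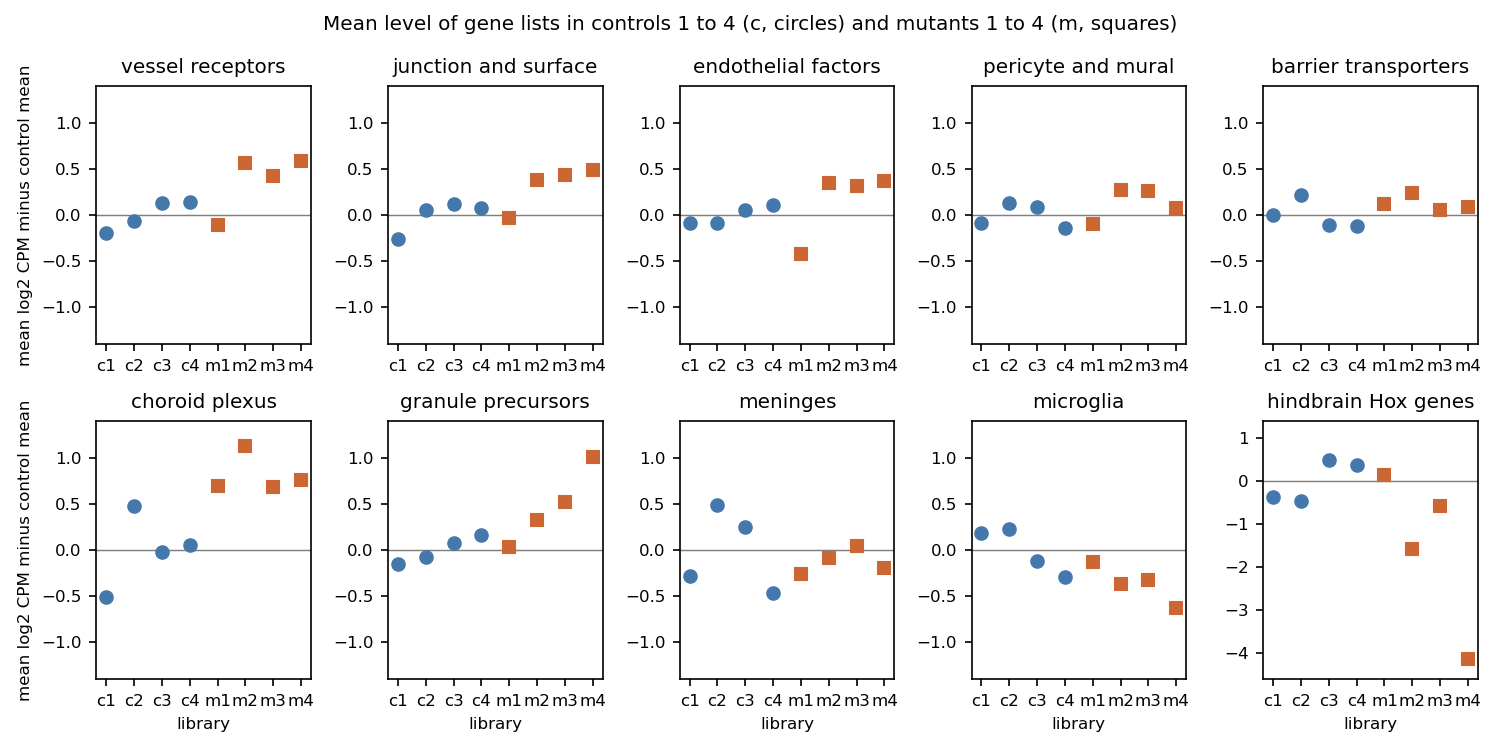
Mean log2 CPM of gene lists in each library minus the mean of the controls, for 5 groups of vessel genes (top) and 5 lists of other markers (bottom); circles are controls 1 to 4 and squares mutants 1 to 4. The Hox panel has its own axis range because mutant 4 lies at -4.13, and mutants 2 and 3, at -1.58 and -0.58, also lie below every control. Receptors are higher in mutants 2 to 4 at 0.43 to 0.58 and not in mutant 1 at -0.11, and choroid plexus markers are higher in all 4 mutants at 0.69 to 1.13.

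The count of 12 members with an unadjusted p under 0.05 depended on single libraries. It was 23 without mutant 1 (against 9.52% of all genes), 3 without mutant 2 (5.68%), 6 without mutant 4 (3.01%), 3 without control 1 (3.7%) and 7 without control 3 (4.09%), all counted as higher in mutants. Without mutants 2 and 4, the libraries with Y-linked counts, it was 2 (1.67%), 30 of 41 members were still higher, and the median log2 fold change was 0.13.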

How the data were processed

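PolyA RNA of 8 whole cerebella, 4 control and 4 mutant, was sequenced from Illumina TruSeq libraries, per the labels' protocols. The deposited tables hold raw counts per gene and per exon bin, which the authors had not normalized. The submitters' processing notes name the build mm9, HTSeq, TopHat and DESeq2. Versions, annotation and use of strand are not given in the sources used here, so antisense and near-identical genes are uncertain. Lines that name no gene (24.8 to 34.3% of entries) were left out. Each library is a different pup.

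Genes were tested over the whole table with edgeR 4.0.16 (R 4.3.3): filterByExpr, TMM, the robust quasi-likelihood test, genotype as the only term, two-sided, Benjamini-Hochberg adjustment, threshold 0.05. CPM use TMM-scaled library sizes, and a standard error is the log2 fold change over the root of F. List scores are mean log2 CPM (prior count 2). For exon bins, diffSpliceDGE of edgeR was used. The gene fit and the exon bin fit were tested on simulated data, and the other steps were not. DESeq2 1.42.0, other scalings, no filter, a title letter block and each library left out were alternatives.

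The members, lists and tests were chosen with earlier results of these data known. Values in every library are given for Sufu, for members with an unadjusted p under 0.05 or no overlap, and for Pecam1, Cdh5, Cldn5, Kdr, Pdgfrb and Rgs5. Of each pathway list the 2 genes with the smallest p are named. Vegfa, Ndp and Wnt7b, and the values per library of Slco1a4, Sox17, Sox18, Vwf, Nos3, Kcnj8, Tie1 and Eng, were chosen after they were seen. So were the sums per library of the choroid plexus, granule precursor and basement membrane lists.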

Additional observations from a re-analysis of the deposited data

Results flagged for a closer look

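Among the 82 sets of 4 libraries (41 genes in 2 groups), 4 held a library far from the other 3, and chance alone sets such a library apart in about 1 of 20 sets. Mutant 1 was the low library in 3 of them: Eng at 29.9 CPM, with the next mutant at 50.1 CPM, Fli1 at 7.65 CPM, with the next at 10.2 CPM, and Nos3 at 11.3 CPM, with the next at 19.0 CPM. Control 1 was low for Sox7, at 5.11 CPM, with the next control at 6.40 CPM.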

How the results depend on the processing

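Under each of 14 alternatives 0 of the 41 members passed the adjusted threshold, except with DESeq2, where 1 did, Abcc9. The median log2 fold change of the members stayed above 0 in every setting, between 0.19 (without mutant 2) and 0.36 (without mutant 1) when 1 library was left out. With each other scaling, no filter, DESeq2 or a title letter block it was 0.27 to 0.29. Of the 41 members, 32 kept their sign in every setting. Those that turned were all short of the threshold. With the letter block the log2 fold change of Slco1c1 was 0.0075, from -0.01. Without the mutants that hold Y-linked counts it was 0.014 for Slco1c1, -0.065 for Sox18, -0.044 for Abcb1a and -0.043 for Notch3. With 1 library left out it ranged from -0.22 to 0.14 for Sox17, -0.028 to 0.31 for Sox18, -0.11 to 0.11 for Slco1c1, -0.022 to 0.21 for Abcb1a, -0.019 to 0.10 for Abcg2, -0.093 to 0.0079 for Mfsd2a, -0.36 to 0.075 for Esm1, -0.42 to 0.012 for Acta2 and -0.035 to 0.042 for Notch3. The cause was not tested. With the letter block 16 members had an unadjusted p under 0.05 and a higher level, and the lowest adjusted p was 0.216 (edgeR). No paired analysis was possible because the labels give no replicate number shared across the groups. Low counts limit Esm1, which held 10 to 25 counts per library.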
